A study of Rattus norvegicus with 31 samples.

Results

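Fatty acid oxidation in mitochondria is represented here by 9 genes: Cpt1a, Cpt2, Acadvl, Acadl, Acadm, Hadha, Hadhb, Etfdh and Pdk4. They were found by their names among the non-control probes of a rat whole-genome array, which gave 13 of its 41012 probes. Of the 9 genes, 8 could be tested, among 22262 genes in all. Blood cells were compared in 3 groups of young adult rats. The CR-L group (13 samples) were born to dams whose food was cut by 20% between gestational days 1 and 12, and as pups they received leptin until postnatal day 21. The daily leptin dose began at 1.0 ng and ended at 43.8 ng, 5 times the mean intake from milk. The CR group (11 samples) came from dams restricted in the same way and suckled without supplement. The WT group (7 samples) were offspring of unrestricted dams, the controls of the protocol, suckled normally. All groups then ate chow freely for 4 months before peripheral blood mononuclear cells (PBMC, mainly lymphocytes and monocytes) were taken. Both sexes were used and 16 rats had been mated, so some of the 31 samples shared a dam. Litter and sex are not given per sample, and p-values could therefore be too small.

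Long fatty acids enter mitochondria as carnitine esters and are shortened there by a repeating cycle of dehydrogenation, hydration, dehydrogenation and thiolysis. The electrons pass to the respiratory chain. In lymphocytes this pathway is best known from memory and regulatory T cells, and in many tissues its genes respond to fasting through the nuclear receptor PPAR alpha.

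Each array held 1 sample in red and a common pool of blood cell RNA in green, and values are given on the log2 scale as sample over pool. A difference between groups is a difference of mean log2 ratios, with its standard error (SE), from limma over all 31 arrays. It was called when the p-value adjusted over all 22262 genes was under 0.05. Median red intensity lay between 69.8 and 93.9 on 30 arrays and was 235 on that of WT replicate 6. CR-L replicate 5 also stood apart: its ratio was the one farthest from the median of all arrays for 18.2% of genes, against at most 5.78% on any other array. Results that rest on either array are given without it.

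The probes are 60 bases long. Those of Cpt2, of Hadha and of Acadvl are shown because the calls turn on the first 4 and because probes of Hadha and of Acadvl differed from each other. The last pair, of Cpt1a, lies on opposite strands.
Cpt2, A_42_P601920: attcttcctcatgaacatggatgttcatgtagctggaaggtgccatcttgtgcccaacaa
Hadha, A_44_P400202: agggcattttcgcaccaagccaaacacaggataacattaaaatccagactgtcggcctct
Hadha, A_44_P480296: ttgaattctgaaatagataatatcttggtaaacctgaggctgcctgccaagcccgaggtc
Hadha, A_44_P414469: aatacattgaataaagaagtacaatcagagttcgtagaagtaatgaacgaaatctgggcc
Acadvl, A_42_P606073: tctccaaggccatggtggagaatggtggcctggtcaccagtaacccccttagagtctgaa
Acadvl, A_44_P498890: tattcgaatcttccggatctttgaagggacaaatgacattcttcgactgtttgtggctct
Cpt1a, A_44_P357870: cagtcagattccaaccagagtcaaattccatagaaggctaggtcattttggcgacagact
Cpt1a, A_44_P127442: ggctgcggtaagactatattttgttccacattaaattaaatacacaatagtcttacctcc
Positions are those of the array files, on the rat build rn4, without an annotation of exons. The Cpt2 probe lies on chromosome 5 from 129007858 to 129007917 on the minus strand. The Hadha probes lie on the part of chromosome 6 that was not placed in order, all on the plus strand. A_44_P414469 is first (452205 to 452264), A_44_P480296 follows (467174 to 467737, so its 60 bases are spread over 564 positions), and A_44_P400202 is last (468441 to 468500). The Acadvl probes lie on chromosome 10, minus strand, A_42_P606073 from 56856347 to 56856406 and A_44_P498890 from 56857370 to 56857429. The Cpt1a probes lie on chromosome 1, A_44_P357870 on the plus strand (205912066 to 205912125) and A_44_P127442 on the minus strand (205912781 to 205912840).

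Between CR-L and WT offspring, 2 of the 8 genes tested were called, both higher in CR-L: Cpt2, by 1.21-fold, and Hadha, by 1.12-fold on its brightest probe. The other Hadha probes, at log2 differences of 0.015 and -0.0135, were not called. Over all genes 4.08% were called in this comparison, 2.19% higher and 1.89% lower. Of the 8 genes, 6 had a difference above 0, with a median of 0.10, against 54% of all genes and a median of 0.0096. Between CR and WT none of the 8 was called, while 0.638% of all genes were. All 8 differences were above 0 there, with a median of 0.076, against 54.2% of all genes. At an unadjusted p under 0.05 stood 3 of the 8 in CR-L against WT (Cpt2, Hadha and Etfdh), against 17.4% of all genes. In CR against WT 2 of the 8 did (Cpt2 and Hadha), against 12.3% of all genes. The 2 comparisons share their 7 WT samples. Between CR-L and CR, limma called 0% of all genes and none of the 8. Only Cpt2 of the 8 had an unadjusted p under 0.05 there, against 2.34% of all genes. No member had groups that did not overlap, against 0.225% of all genes between CR-L and WT, 0.171% between CR and WT and 0% between CR-L and CR.

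**Figure D1:**
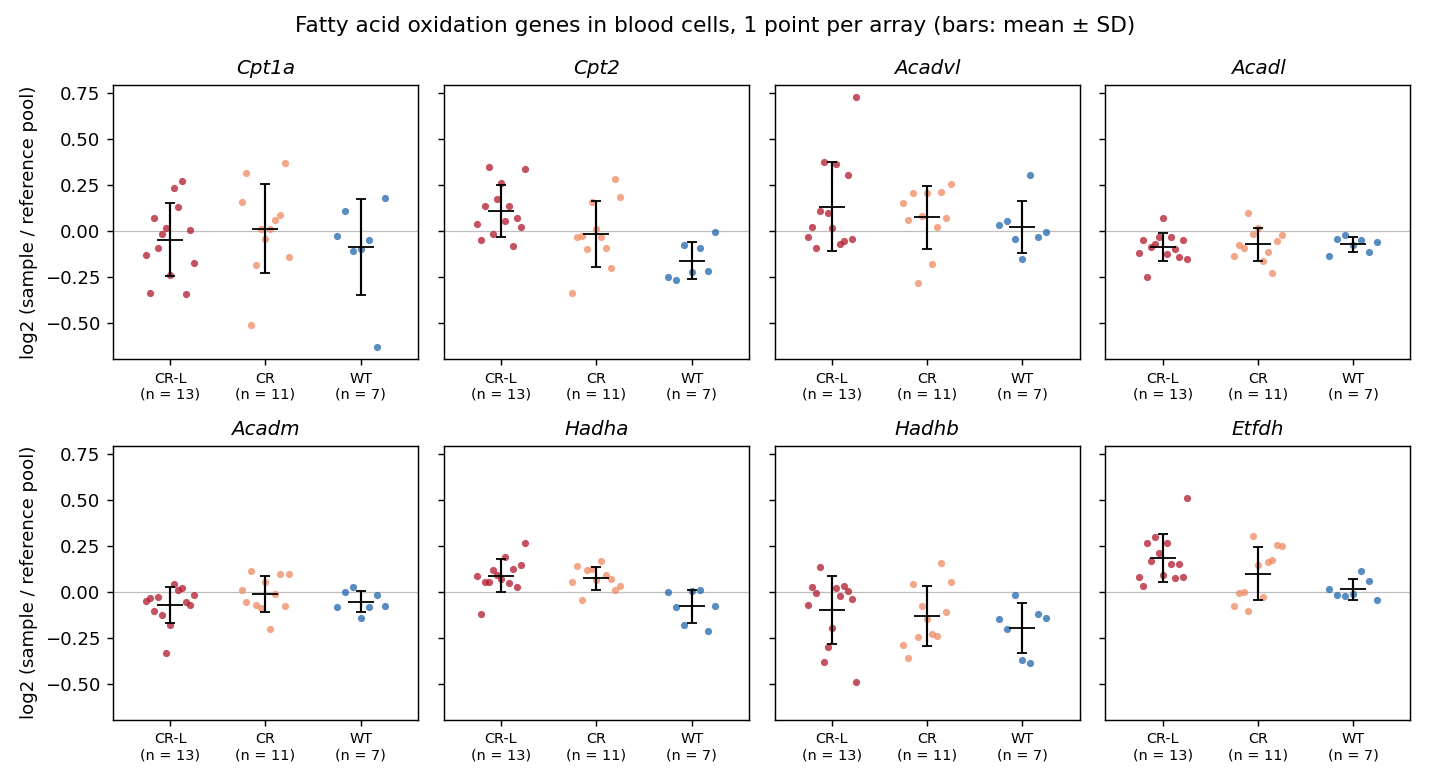
Log2 ratio of sample over reference pool (vertical axis) for the 8 genes tested, 1 panel each, with 1 point per array for CR-L (13), CR (11) and WT (7). Bars show the mean and SD. Of the CR-L points, 10 lie above the highest WT point for Cpt2, 12 for Hadha and 8 for Etfdh, and the groups overlap more widely for the other genes.

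Entry of fatty acids depends on a pair of carnitine acyltransferases. Cpt2, which turns acylcarnitines back into acyl-CoA at the inner membrane, was the member with the largest difference. Its ratio ran from -0.08 to 0.35 in CR-L (median 0.070), from -0.34 to 0.29 in CR (median -0.029) and from -0.27 to -0.0050 in WT (median -0.22). All 13 CR-L samples lay above the WT median and 10 above the highest WT sample. Means were 0.11 ± 0.14 in CR-L, -0.015 ± 0.18 in CR and -0.16 ± 0.10 in WT (SD, n = 13, 11 and 7). The difference between CR-L and WT was 0.27 ± 0.069 (95% interval 0.13 to 0.41, limma adjusted p = 0.0202), and Cpt2 ranked 470th by p among all genes. Within the 7 slides that hold both groups it was above 0 on each, from 0.073 to 0.44. CR against WT gave 0.15 ± 0.071 (adjusted p = 0.403) and CR-L against CR gave 0.13 ± 0.060 (unadjusted p = 0.0454, adjusted p = 1), so the mean of CR lay between the others without differing from either by the test. WT replicate 6, the array with high intensity, was the lowest WT sample for Cpt2. Without it CR-L against WT stood at 0.25 ± 0.073 (adjusted p = 0.0508). Without CR-L replicate 5 it was 0.25 ± 0.068 (adjusted p = 0.0295), and without both arrays 0.23 ± 0.071 (adjusted p = 0.0704).

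Cpt1a, which makes acylcarnitines at the outer membrane and sets the rate of entry in many tissues, did not differ by the test in any comparison. The ratio ran from -0.34 to 0.27 in CR-L (median -0.016), from -0.51 to 0.37 in CR (median 0.013) and from -0.63 to 0.18 in WT (median -0.050). The groups overlapped almost completely. The differences were 0.043 ± 0.10 for CR-L against WT (95% interval -0.17 to 0.25), 0.10 ± 0.11 for CR against WT and -0.058 ± 0.090 for CR-L against CR. This probe was printed in 10 spots on every array, and the SD among those spots had a median of 0.042, against an SD of 0.22 between arrays. Cpt1a varied more between arrays than 82.6% of all genes. The probe on the opposite strand gave 0.13 ± 0.073 for CR-L against WT (adjusted p = 0.399 over all probes). Without WT replicate 5, at -0.63, the difference between CR-L and WT on the main probe turned to -0.047.

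The acyl-CoA dehydrogenases take the first step of each cycle, on very long (Acadvl), long (Acadl) and medium chains (Acadm). None was called in any comparison. Acadvl ran from -0.090 to 0.73 in CR-L (median 0.020), from -0.28 to 0.26 in CR (median 0.083) and from -0.15 to 0.31 in WT (median -0.0064). The highest CR-L value belonged to replicate 5, and its difference from WT, 0.11 ± 0.091, was 0.061 without that array. On that array the 2 Acadvl probes read 0.73 and -0.38. Over all 31 arrays they had r = -0.014 (Spearman rho 0.17, permutation p = 0.94 and 0.36), but this rests on that array: without it r was 0.41 (rho 0.29, adjusted permutation p = 0.0421 over the 5 pairs of probes of 1 gene). Without the 2 samples farthest from the median r was 0.30, and within groups and slides, with all arrays, it was -0.23. The second Acadvl probe gave -0.0057 ± 0.061 for CR-L against WT.

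Acadl ran from -0.25 to 0.074 in CR-L (median -0.086), from -0.23 to 0.099 in CR (median -0.073) and from -0.13 to -0.021 in WT (median -0.061). Its differences were -0.016 ± 0.040 for CR-L against WT, 0.00080 ± 0.042 for CR against WT and -0.016 ± 0.035 for CR-L against CR. Acadl was among the steadiest genes on the array: only 0.719% of all genes had a smaller SD across arrays. The 95% interval of CR-L against WT was -0.098 to 0.067.

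Acadm ran from -0.33 to 0.042 in CR-L (median -0.050), from -0.20 to 0.12 in CR (median -0.011) and from -0.14 to 0.027 in WT (median -0.075). It gave -0.018 ± 0.046 for CR-L against WT, 0.042 ± 0.048 for CR against WT and -0.060 ± 0.041 for CR-L against CR. The groups overlapped, and its SD across arrays was above that of 4.16% of all genes.

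The trifunctional protein carries out the next steps for long chains. Hadha encodes its alpha subunit, with the hydratase and 3-hydroxyacyl-CoA dehydrogenase, and Hadhb the beta subunit, the thiolase. On the probe that stood for Hadha, the brightest of 3, the ratio ran from -0.12 to 0.27 in CR-L (median 0.087), from -0.046 to 0.17 in CR (median 0.070) and from -0.22 to 0.0082 in WT (median -0.075). In CR-L 12 of 13 samples, and in CR 10 of 11, lay above the highest WT sample. Means were 0.090 ± 0.092 in CR-L, 0.075 ± 0.062 in CR and -0.078 ± 0.091 in WT (SD, n = 13, 11 and 7). CR-L exceeded WT by 0.17 ± 0.043 (95% interval 0.080 to 0.25, limma adjusted p = 0.0211), and the difference was above 0 on all 7 slides, from 0.072 to 0.34. CR against WT gave 0.15 ± 0.044 (unadjusted p = 0.00156, adjusted p = 0.0943), above 0 on all 7 slides as well, from 0.0026 to 0.32. CR-L and CR lay close together, at 0.014 ± 0.037 (95% interval -0.062 to 0.091). The CR-L call was kept without WT replicate 6 (0.17 ± 0.046, adjusted p = 0.0397), without CR-L replicate 5 (0.15 ± 0.041, adjusted p = 0.0277) and without both (adjusted p = 0.0492). It ended without WT replicate 4 (0.15, adjusted p = 0.0712) or WT replicate 5 (0.14, adjusted p = 0.0703).

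The other Hadha probes did not show this difference. Of the members' 12 probes tested, A_44_P400202 and the Cpt2 probe were called in CR-L against WT and none in the other comparisons. Over all probes, 4.11% were called in CR-L against WT, 0.689% in CR against WT and 0% in CR-L against CR. For CR-L against WT, A_44_P480296 gave 0.015 ± 0.062 and A_44_P414469 gave -0.014 ± 0.067. For CR against WT they gave 0.064 ± 0.064 and -0.061 ± 0.069. Mean log2 intensity ran from 10.75 to 11.37 on A_44_P400202, from 9.69 to 10.31 on A_44_P480296 and from 6.54 to 7.37 on A_44_P414469. The last was thus far dimmer, and whether its low intensity narrows its ratios was not tested. All 3 probes were well above background on 31 of 31 arrays and saturated on none. Their ratios did not rise and fall together: A_44_P400202 had r = -0.064 with A_44_P480296 (permutation p = 0.734, rho -0.12) and r = -0.16 with A_44_P414469 (permutation p = 0.391, rho -0.18). Without CR-L replicate 5 these were r = 0.0041 and r = -0.22. A_44_P480296 and A_44_P414469 opposed each other (r = -0.57, rho -0.45, adjusted permutation p = 0.0033 and 0.0633 over the 5 pairs of probes, r = -0.48 without the 2 samples farthest from the median, r = -0.56 without CR-L replicate 5, r = -0.36 within groups and slides). The mean of the 3 probes differed between CR-L and WT by 0.056 (adjusted p = 0.325). The higher value of Hadha in CR-L was thus seen on 1 of its 3 probes, the brightest. Whether the probes report different transcripts was not tested.

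**Figure D2:**
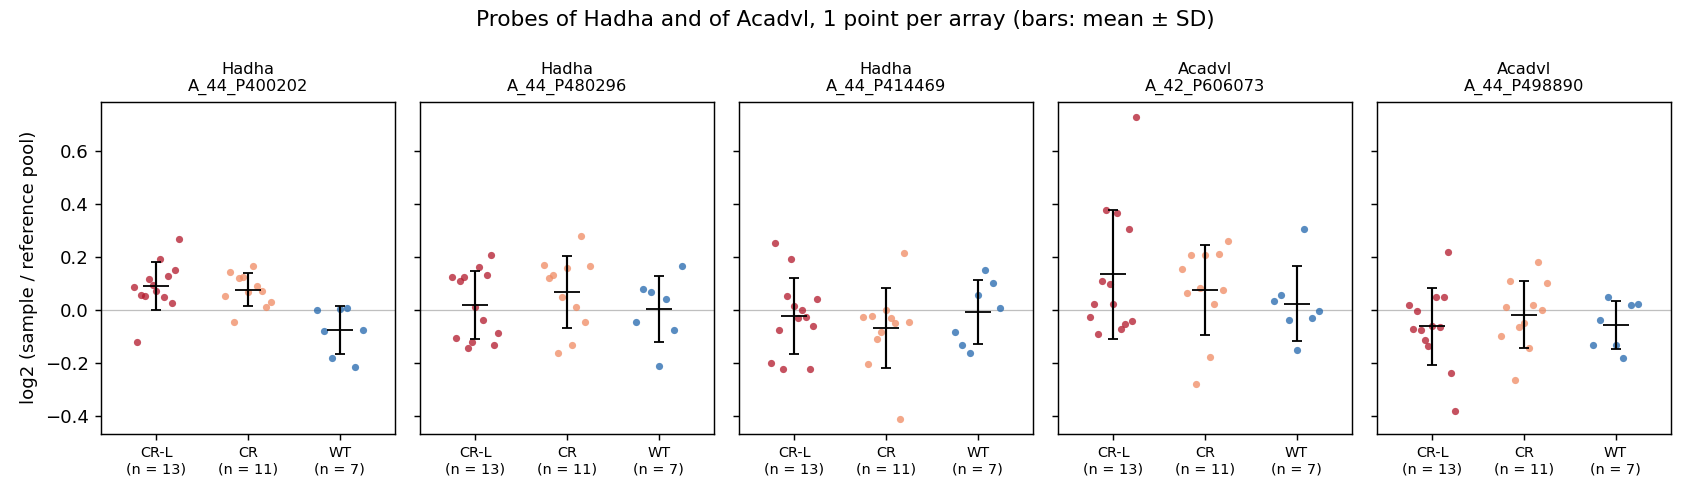
Log2 ratio of sample over reference pool (vertical axis) for the 3 Hadha probes and the 2 Acadvl probes, 1 point per array, with mean and SD for CR-L (13), CR (11) and WT (7). Most CR-L and CR points lie above all WT points on A_44_P400202, the groups overlap widely on the other Hadha probes, and the CR-L point at 0.73 on the first Acadvl probe is at -0.38 on the second.

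Hadhb ran from -0.49 to 0.13 in CR-L (median -0.024), from -0.36 to 0.16 in CR (median -0.15) and from -0.39 to -0.016 in WT (median -0.15). The groups overlapped, and its differences were 0.098 ± 0.077 for CR-L against WT (adjusted p = 0.567), 0.067 ± 0.080 for CR against WT and 0.032 ± 0.068 for CR-L against CR. Hadhb therefore did not share the call of its partner subunit, and the difference between the 2 genes was not tested. The lowest CR-L value was that of replicate 5, which was highest for Hadha. Without it CR-L against WT gave 0.13 ± 0.071 (adjusted p = 0.367) and CR-L against CR 0.064 ± 0.063.

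Etfdh encodes the oxidoreductase that passes electrons from the acyl-CoA dehydrogenases, by way of the electron transfer flavoprotein, to ubiquinone. Its ratio ran from 0.034 to 0.51 in CR-L (median 0.15), from -0.10 to 0.30 in CR (median 0.14) and from -0.041 to 0.12 in WT (median -0.013). All 13 CR-L samples lay above the WT median and 8 above the highest WT sample, so the groups overlapped in part. The difference between CR-L and WT, 0.17 ± 0.059 (95% interval 0.050 to 0.29), had an unadjusted p of 0.00695 and did not pass over all genes (adjusted p = 0.0994). It was above 0 on all 7 slides, from 0.077 to 0.55. Without CR-L replicate 5, the highest sample, it was 0.14 ± 0.053. CR against WT gave 0.085 ± 0.061 and CR-L against CR 0.085 ± 0.052, neither past the threshold.

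Pdk4, the kinase that inactivates pyruvate dehydrogenase and so spares glucose when fat is burnt, was not well above background on any of the 31 arrays. It gave no comparison. The other 12 probes were well above background on all arrays.

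**Figure D3:**
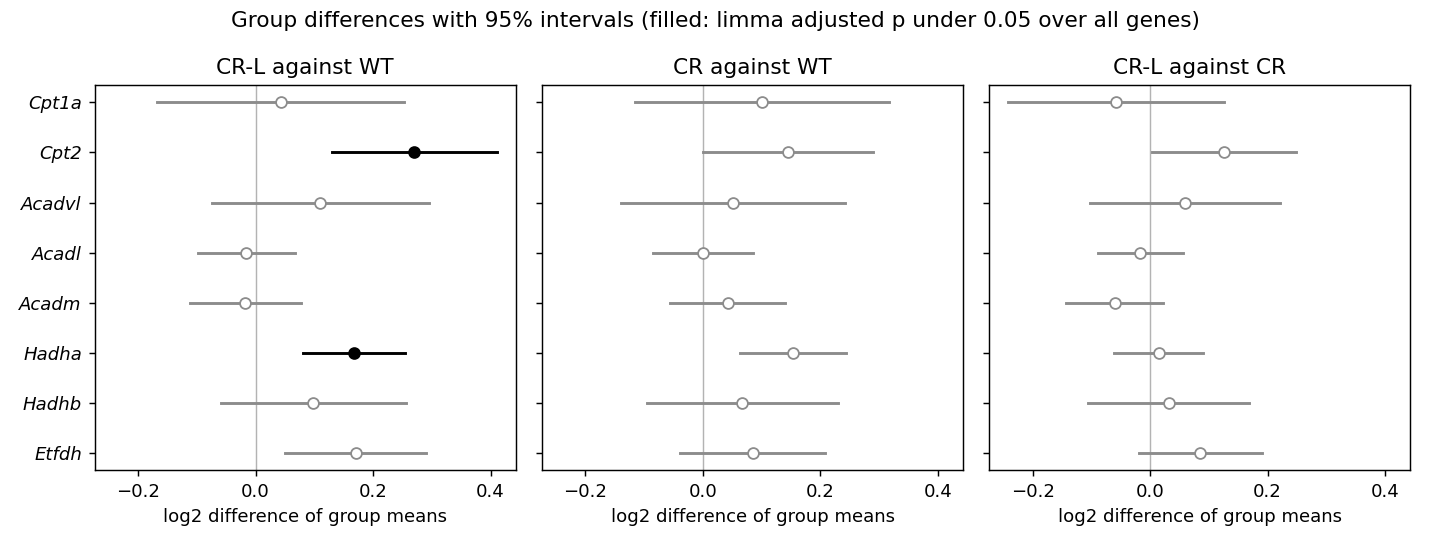
Difference of mean log2 ratios (horizontal axis) with its 95% interval for the 8 genes in CR-L against WT, CR against WT and CR-L against CR. Filled points passed the limma test over all 22262 genes: Cpt2 at 0.27 and Hadha at 0.17 in CR-L against WT, and none in the other comparisons. Each gene is shown on its brightest probe, and the other Hadha probes were not called.

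Pairs of members were then compared across the 31 arrays. Of 28 pairs, 13 had a positive Pearson r, and the median r was -0.0079. After adjustment over the 28 pairs, 3 passed a permutation test, all positive. Cpt2 and Etfdh had r = 0.67 and rho = 0.67 (adjusted permutation p = 0.00112 and 0.00168), r = 0.62 without the 2 samples farthest from the Cpt2 median and r = 0.52 after group and slide were removed. Acadvl and Etfdh had r = 0.67 and rho = 0.53 (adjusted permutation p = 0.00154 and 0.0297), with r = 0.45 without the 2 farthest samples and r = 0.70 within groups and slides. Without CR-L replicate 5 these values were 0.61 for Cpt2 with Etfdh and 0.52 for Acadvl with Etfdh. The Acadvl values are those of A_42_P606073, and the other Acadvl probe was not compared with Etfdh. Acadm and Hadhb had r = 0.50 and rho = 0.52 (adjusted permutation p = 0.0386 and 0.0297), r = 0.46 without the 2 farthest samples, r = 0.45 within groups and slides, and r = 0.57 without CR-L replicate 5.

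The subunits Hadha and Hadhb had r = -0.27 (rho = -0.19, permutation p = 0.143, adjusted p = 0.402), and r = -0.13 without CR-L replicate 5. Once group and slide were removed it was -0.58 (adjusted permutation p = 0.00728), or -0.50 without CR-L replicate 5. That permutation treated residuals as independent values, which they are not after such a fit, so its p-values are too small. The Hadha probe A_44_P400202 and the Hadhb probe thus did not rise and fall together, and within groups and slides their r was negative. The other Hadha probes did not rise and fall with A_44_P400202, and they were not compared with Hadhb. No statement on the gene Hadha as a whole follows. By the same residual p-values, the count of pairs past the threshold became 7, of which 5 were positive, and this count could be too high.

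**Figure D4:**
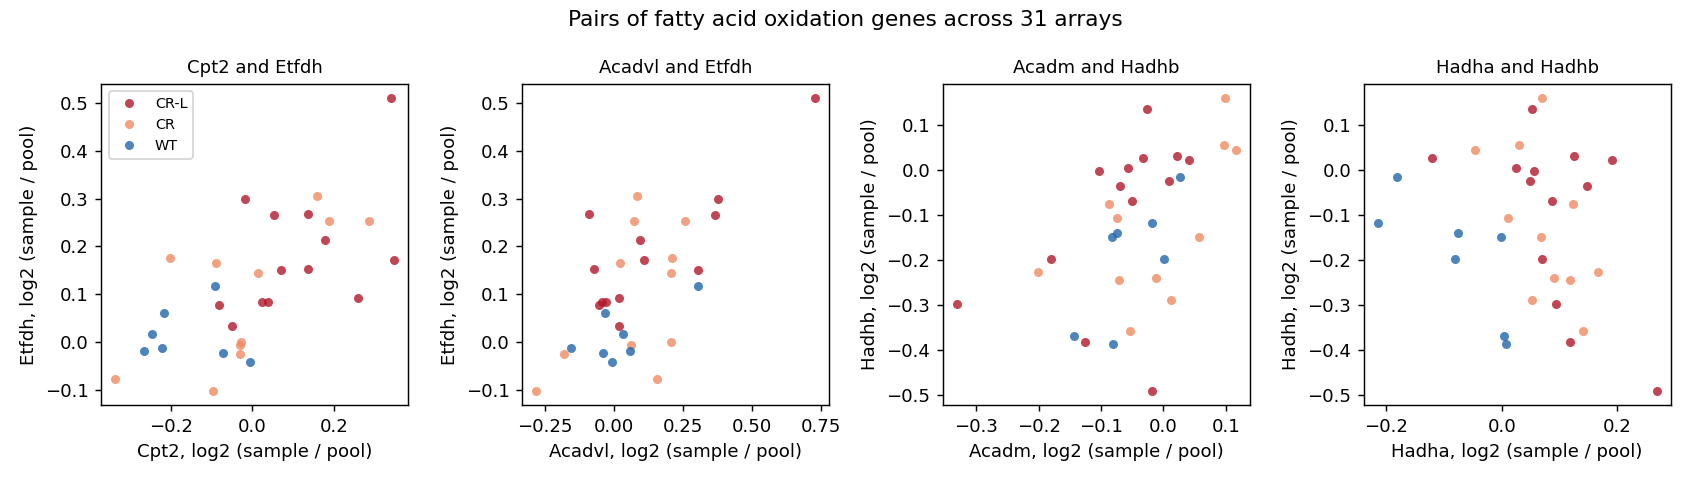
Log2 ratios of 4 pairs of genes, 1 point per array, coloured by group (CR-L, CR, WT). Cpt2 with Etfdh (r = 0.67), Acadvl with Etfdh (r = 0.67) and Acadm with Hadhb (r = 0.50) rise together, and Hadha with Hadhb (r = -0.27) does not. Acadvl is shown on A_42_P606073 and Hadha on A_44_P400202, and their other probes were not compared in this way. The point at the top right for Acadvl is CR-L replicate 5.

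The start regions of these genes are shown because Cpt2 and Etfdh varied together and because Hadha and Hadhb share theirs. RefSeq windows of 300 bases, 250 before the start and 50 after it, on the build GRCr8, were available for 8 of the 9 members. The motifs searched, on both strands, were GGGCGG (the core of a GC box), the ETS motif CCGGAAG, the cyclic AMP response motif TGACGT, the CCAAT box, the TATA box as TATAAA, and AGGTCA, a motif bound by nuclear receptors such as PPAR. In the first and second windows capitals mark GGGCGG. In the third they mark the 200 bases shared with the window of Hadhb.
Cpt2, chr5:127910769-127911068, minus strand: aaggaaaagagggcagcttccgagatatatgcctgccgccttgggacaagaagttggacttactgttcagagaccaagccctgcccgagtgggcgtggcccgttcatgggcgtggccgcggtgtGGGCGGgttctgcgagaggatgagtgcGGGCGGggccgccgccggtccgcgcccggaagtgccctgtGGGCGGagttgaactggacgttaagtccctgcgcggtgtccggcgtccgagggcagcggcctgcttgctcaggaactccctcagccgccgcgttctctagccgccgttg
Etfdh, chr2:167060709-167061008, minus strand: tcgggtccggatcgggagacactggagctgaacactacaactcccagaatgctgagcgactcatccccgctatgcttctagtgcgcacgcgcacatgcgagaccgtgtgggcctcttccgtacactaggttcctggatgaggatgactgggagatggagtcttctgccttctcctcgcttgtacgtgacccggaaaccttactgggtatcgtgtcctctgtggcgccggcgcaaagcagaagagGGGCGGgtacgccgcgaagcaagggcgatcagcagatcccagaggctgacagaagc
Hadha, chr6:31907551-31907850, plus strand: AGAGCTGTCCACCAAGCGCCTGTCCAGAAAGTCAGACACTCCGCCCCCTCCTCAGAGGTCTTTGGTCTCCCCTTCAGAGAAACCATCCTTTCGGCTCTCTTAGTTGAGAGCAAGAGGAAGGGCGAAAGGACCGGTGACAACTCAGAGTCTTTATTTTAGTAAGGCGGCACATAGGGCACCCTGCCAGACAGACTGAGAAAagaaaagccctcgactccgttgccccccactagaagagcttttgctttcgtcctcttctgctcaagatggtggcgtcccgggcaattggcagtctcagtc
Hadha and Hadhb start 301 bases apart on opposite strands and point away from each other, so a match in the shared bases counts for both. GGGCGG was present in 6 of the 8 windows (Cpt2, Hadha, Hadhb, Acadm, Etfdh and Pdk4), against 33.1% of all 33469 windows. It was found 4 times in Hadhb, 3 times each in Cpt2 and Acadm, 2 times in Pdk4 and 1 time each in Etfdh and Hadha. Those 6 windows held 54.3 to 66.7% G and C, against a median of 51.7% over all windows, and the count was not adjusted for this. CCGGAAG was found in Cpt2 alone (8.75% of all windows), TGACGT in Acadm alone (7.94%) and CCAAT in Hadha and Pdk4 (37.5%). AGGTCA was found in Hadhb and Acadvl (16.2%), and TATAAA in none of the 8 (14.2%). These are matches of letters in these windows and say nothing of binding.

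By the highest Pearson r over 31 arrays, the gene most like each member was named. Acadvl was followed by Arhgap1 (r = 0.95), Cpt2 by Spart (0.89), Hadhb by Zfp133 (0.85), Etfdh by Phrf1 (0.83), Hadha by Mrps34 (0.81), Acadm by Hp1bp3 (0.81), Acadl by Sox5 (0.77) and Cpt1a by Usp10 (0.61). These arrays share 1 reference pool, and each value is the highest of all genes, so they are descriptions. The values of Acadvl and Hadha are those of A_42_P606073 and A_44_P400202, and their other probes were not compared. Without CR-L replicate 5, r with the same genes ran from 0.65 for Cpt1a to 0.92 for Acadvl, with 0.78 for Etfdh and 0.77 for Hadha. Among the members themselves the highest r over 31 arrays was 0.67. It is the highest of only 28 pairs, so it cannot be set against values that are the highest of all genes.

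Genes around the pathway were counted as lists. Activation and carnitine entry had 11 of 14 genes tested, and all 11 lay above 0 in CR-L against WT (median 0.051) and in CR against WT (median 0.041), with none called. The smallest p was that of Dbi, which binds acyl-CoA, at 0.19 ± 0.079 in CR-L against WT (adjusted p = 0.191). Of the other enzymes of mitochondrial beta-oxidation, 18 of 19 were tested, none was called, and 10 lay above 0 (median 0.0089). The smallest p there was that of Acad10, an acyl-CoA dehydrogenase family member, at 0.19 ± 0.081 (adjusted p = 0.202). Of the peroxisomal enzymes and transporters, 9 of 11 were tested and none called, with Scp2, whose gene gives a thiolase and a sterol carrier protein, at 0.099 ± 0.057 (adjusted p = 0.391).

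Lists for pyruvate dehydrogenase and for the tricarboxylic acid cycle held 1 call each. Of the 11 genes of pyruvate dehydrogenase, its kinases and its phosphatases, Pdp1, the phosphatase that activates the complex, was lower in CR-L than in WT (-0.23 ± 0.060, adjusted p = 0.0244), with means of -0.12 ± 0.14 in CR-L and 0.11 ± 0.089 in WT (SD, n = 13 and 7). It gave -0.18 ± 0.062 in CR against WT, not past the threshold (adjusted p = 0.188 over all probes). Of 17 genes of the tricarboxylic acid cycle, Ogdh, which encodes the E1 subunit of 2-oxoglutarate dehydrogenase, was called lower in CR-L than in WT on its brighter probe (-0.31 ± 0.083, adjusted p = 0.031). Its other probe gave 0.30 ± 0.067 (adjusted p = 0.00835 over all probes), the opposite sign, so no direction can be given for Ogdh. The list medians were 0.00088 and -0.032.

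Of the regulators and PPAR targets, 17 of 21 were tested. Foxo1, a transcription factor held out of the nucleus by insulin signalling, was the 1 call, lower in CR-L (-0.52 ± 0.095, adjusted p = 0.00172) and in CR (-0.48 ± 0.098, adjusted p = 0.0183) than in WT. The list median for CR-L against WT was 0.0044. Ppara and Ppargc1a, the receptor and coactivator best known for driving these genes in liver and muscle, were each well above background on at most 1 of 31 arrays and were not tested. Between CR-L and CR no gene of any of these lists was called.

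Blood cell markers were measured beside these values, since in PBMC fewer cells of a type and less RNA per cell cannot be told apart. T cell (15 of 16 tested), B cell (10 of 12) and monocyte genes (12 of 12) were present as the label implies. Signal was also found for 11 of 12 erythroid, 9 of 12 platelet and 9 of 12 granulocyte genes, which the label does not imply. The B cell genes Cd79a and Pax5 and the platelet gene Itga2b had no probe under those names. For CR-L against WT, 0 of 10 B cell genes were above 0 (median -0.24), 11 of 15 T cell genes (median 0.035), 9 of 11 NK and cytotoxic genes (median 0.10), 4 of 12 monocyte genes (median -0.096), 2 of 9 granulocyte genes (median -0.28), 4 of 9 platelet genes (median -0.011) and 11 of 11 erythroid genes (median 0.38). For CR against WT, 9 of 9 platelet genes (median 0.45), 14 of 15 T cell genes (median 0.076) and 8 of 11 NK and cytotoxic genes (median 0.066) were above 0. In that comparison 2 of 10 B cell genes (median -0.083), 2 of 12 monocyte genes (median -0.15), 1 of 9 granulocyte genes (median -0.32) and 2 of 11 erythroid genes (median -0.18) were above 0. None of these genes was called in either comparison. The mean of the platelet list per array ran from -3.01 to 0.80 in CR-L, from -0.63 to 0.79 in CR and from -1.47 to 0.29 in WT. The mean of the B cell list per array ran from -0.80 to 0.32 in CR-L, from -0.93 to 0.41 in CR and from -0.69 to 0.29 in WT, and that of the erythroid list from -2.18 to 1.38 in CR-L, from -1.82 to 0.88 in CR and from -1.14 to 0.018 in WT. With the B cell, T cell, monocyte and platelet means as covariates, Cpt2 stood at 0.23 ± 0.067 (adjusted p = 0.0426) and Hadha at 0.15 ± 0.044 (adjusted p = 0.0447) in CR-L against WT. In CR against WT Hadha stood at 0.15 ± 0.047 (adjusted p = 0.122) in that fit. The part of erythroid, granulocyte and NK cells in these results was not tested.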

How the data were processed

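RNA of 31 PBMC samples was hybridised in red (Cy5) against 1 pool in green (Cy3), made from 5 random samples per group, per the labels. No dye was swapped, so a constant dye effect cancels between groups. The members and gene lists were chosen with earlier results of these data known.

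Scanner output was deposited by the authors for each array. Per the file headers, it gives the intensity of each spot and its local background, and a log10 ratio of red over green after background detrending and dye normalization. The submitters' processing notes name Agilent Feature Extraction, version 10.7.3.1. The deposited table of the whole series holds log2 values by the authors. These followed log2 red intensity (lowest r 0.993 over probes), every array had a median of 8.17, and further steps are not given in the sources used here.

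Intensities were corrected by normexp (offset 50) and loess within arrays with limma 3.58.1 in R 4.3.3. A few spots had local backgrounds far above the rest and distorted normexp on 3 arrays. Local backgrounds over 2 times the array's median (14 to 197 spots per array) were therefore set to that median. This step was chosen after the data had been seen, and the version without it is an alternative. Control and outlier spots were left out and spots of a probe averaged. A probe stayed in if its red signal was well above background on 7 or more arrays (26721 probes), and the brightest stood for its gene, which gave 22262 features called genes here. Some of these carry a probe ID in place of a symbol.

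Group means were compared by limma's moderated two-sided test over all 31 arrays. P-values were adjusted by Benjamini-Hochberg and called under 0.05. Fits were checked on simulated data. Correlations have 100000-resample permutation p-values. Named genes followed a rule: all members; of each other pathway list the genes past the threshold, at most 4, or else the 1 with the smallest p in CR-L against WT; and the gene with the highest r to each member. Precision is limited by how many arrays there are.

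The 8 slides each hold all groups, except 1 without WT. Replicate numbers showed no clear pairing of the samples. Over 7 pairs, deviations from the group means correlated from -0.13 to 0.36 between CR-L and WT and from -0.26 to 0.18 between CR and WT. Between CR-L and CR they correlated from -0.42 to 0.44 over 11 pairs. A sample was most like that of its own number in 2 of 7, 1 of 7 and 1 of 11 pairs. Alternatives were the Feature Extraction ratio, the series table, red alone, Aquantile, other filters, slide or replicate number as a block, pairs of groups, mean over probes, lineage covariates and each array left out.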

Additional observations from a re-analysis of the deposited data

Results flagged for a closer look

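Cpt1a in WT replicate 5 read -0.6278, while the other WT samples lay between -0.11 and 0.18. The gap to the next sample was 0.646 of the group's range, above the limit for 7 samples. This was 1 of 8 genes looked at in WT, and chance alone marks about 5% of groups. The CR and CR-L groups are too large for this rule. Without the array, Cpt1a differed by -0.0473 between CR-L and WT and by 0.011 between CR and WT, in place of 0.043 and 0.10.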

How the results depend on the processing

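Between CR-L and WT, 2 members were called, 0 with the authors' series table and 1 each with red alone, with only those groups, with the mean of a gene's probes and without the 2 arrays that stand apart (chosen after seeing the data). Leaving out 1 array gave 1 to 2, with 1 without WT replicate 4, 5 or 6. Cpt2 was 0.295 (adjusted p = 0.0576) with the series table, and was called in 11 of 13 alternatives (0.233 to 0.363). Hadha was 0.186 (adjusted p = 0.185) with the series table, 0.116 (0.385) in red alone and 0.167 (0.0637) with only those groups, and was called in 9 of 13 (0.0562 to 0.207). The other comparisons gave 0 members throughout. Aquantile leaves log ratios as they are, so it could change nothing, yet it is counted among the 13 and among the calls. Cpt2 has 1 probe, well above background on all arrays. The mean over probes and the filters therefore left its difference as it was and could change only its test. The 3 correlated pairs became 7 after group and slide were removed, treating residuals as independent, which makes p too small. They became 2 in red alone and 4 without CR-L replicate 5. The Cpt1a probes had r = 0.408 (adjusted p = 0.0572), or 0.555 without that array (0.0046).

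Some small differences, none called, changed sign. Acadl in CR against WT became -0.0019 with the Feature Extraction ratio, -0.0311 with the series table, -0.014 in red alone, and -0.0161 to 0.0163 with 1 array left out. In CR-L against CR Acadl was 0.0178 with the series table and -0.0319 to 0.0005 with 1 array left out, and in CR-L against WT 0.0027 with lineage covariates. In CR-L against CR Hadhb was -0.0004 with slide as a block, and Hadha was -0.0015 with lineage covariates, -0.0006 without the 2 arrays, and -0.0006 to 0.0319 with 1 left out. In CR-L against WT Acadm ran from -0.0327 to 0.004 and Cpt1a from -0.0473 to 0.0873 with 1 left out. Without CR-L replicate 5 (chosen after seeing the data) r between the Acadvl probes became 0.407 and that between A_44_P400202 and A_44_P480296 0.00406. The cause was not tested.

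With replicate number as a block, 2, 0 and 0 members were called in the 3 comparisons, Cpt2 stood at 0.305 and Hadha at 0.187, and Acadl in CR against WT at -0.0046. Over all genes, 908 calls between CR-L and WT became 500 with the series table. They became 1038 with probes well above background on all arrays and 1027 with lineage covariates. With 1 array left out, they ran from 498 (WT replicate 4) to 1213 (CR-L replicate 10), with 571 without WT replicate 2 and 593 without WT replicate 5. The 142 between CR and WT became 0 with the series table, 30 in red alone, 65 with the Feature Extraction ratio, 69 each with slide as a block and with lineage covariates, 67 without the 2 arrays, 78 without the filter, 218 with only those groups, 253 with the replicate block, and 21 to 248 with 1 array left out.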
